A study of Homo sapiens with 12 samples.

Results

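The genes described here are 9 regulators of entry into the cell cycle, taken by symbol from the 59276 features of the deposited table: the cyclin-dependent kinase (CDK) inhibitors CDKN1A, CDKN1B, CDKN2A, CDKN2C and CDKN2D, the p53 regulator MDM2, and the retinoblastoma family genes RB1, RBL1 and RBL2. They were chosen by symbol, with earlier results of these data known. They were read in 12 total RNA libraries of MM1S, an established human multiple myeloma cell line. The 4 groups of 3 libraries were untreated cells, labelled day 0, and cells kept for 2, 3 or 5 days with 10 μM NGI-1, an inhibitor of the oligosaccharyltransferase complex, which attaches N-glycans to proteins in the endoplasmic reticulum. The label of the day 0 libraries also gives NGI-1 as treatment, and they are called untreated because the methods describe 2, 3 and 5 days as the treated harvests. No genotype change is labelled in any group, and no untreated library of a later day was analysed here, so time in culture and NGI-1 cannot be told apart.

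Passage from G1 into S phase is driven by cyclin and CDK pairs that phosphorylate the retinoblastoma proteins RB1, RBL1 (p107) and RBL2 (p130), which otherwise hold E2F transcription factors in check. The CIP/KIP inhibitors CDKN1A (p21) and CDKN1B (p27) bind cyclin and CDK complexes, and the INK4 inhibitors bind CDK4 and CDK6 directly. The transcription factor p53 induces CDKN1A and also MDM2, the ubiquitin ligase that in turn degrades p53. Plasma cells, the cells from which myeloma arises, normally leave the cell cycle as they mature, and CDKN2C (p18) has a known part in that exit.

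The deposited values are log2 of TPM plus 1, where TPM is a share of the sequenced transcripts corrected for transcript length. A gene was called lower or higher where limma gave a Benjamini-Hochberg adjusted p under 0.05 over all 11939 tested features and the log2 fold change exceeded 0.5 in size. All 9 genes passed the filter of 1 TPM in at least 3 libraries. Most tested features lay lower under NGI-1, with median log2 fold changes of -0.18 at day 2, -0.73 at day 3 and -0.99 at day 5, while the 20 most abundant features held 23.0% to 23.8% of all TPM in untreated libraries and 38.0% to 40.5% at day 5. Each comparison was therefore also read after rescaling, in which each library was divided by 1 factor so that the median log2 ratio was 0 over the 5433 features with a mean of at least 10 TPM. The factors were 1.489 to 1.505 in the untreated libraries and 0.573, 0.620 and 0.738 in replicates 1, 2 and 3 of day 5, so day 5 replicate 3 stood apart from its group. All 8 plasma cell markers were present, summing to 3000 to 4040 TPM per library, while no B cell, monocyte or stromal marker reached 1 TPM in any library. Single plasma cell markers moved in opposite directions. From untreated cells to day 5, mean SDC1 went from 496 to 144 TPM and XBP1 from 1550 to 366 TPM, while TNFRSF17 went from 577 to 2090 TPM. The T cell marker CD3E lay at 2.75 to 7.22 TPM with CD3D at 0. The epithelial genes KRT8 and KRT18 lay at 2.22 to 8.32 TPM and 3.86 to 19.8 TPM, with EPCAM at 0. Of the 4 erythroid markers only HBB reached 1 TPM, with a highest value of 1.14 TPM. Its mean was 0 in untreated cells and 0.805 TPM at day 5. TPM values keep no read counts, and the depth behind a value is unknown. In such bulk RNA, fewer cells of a type and less RNA per cell cannot be told apart.

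The promoters of RBL1 and RBL2 are shown because these paralogs differed most within the RB family. A further reason was that RBL1, like the E2F target genes described further on, was called lower at every treated day on both scales. Whether E2F factors lowered RBL1 was not tested. The 250 bases before each start come from RefSeq on GRCh38.p14, in which all 9 genes were matched. They lie at chr20:37095998-37096247 on the minus strand for RBL1 and at chr16:53434221-53434470 on the plus strand for RBL2, for which the table holds 2 starts and 1 is shown. Both are printed 5′ to 3′ on the strand of the gene, with matches to the E2F motifs TTTGGCGC, TTTCGCGC, TTTCCCGC or TTTGCCGC, searched on both strands, in capitals.
RBL1: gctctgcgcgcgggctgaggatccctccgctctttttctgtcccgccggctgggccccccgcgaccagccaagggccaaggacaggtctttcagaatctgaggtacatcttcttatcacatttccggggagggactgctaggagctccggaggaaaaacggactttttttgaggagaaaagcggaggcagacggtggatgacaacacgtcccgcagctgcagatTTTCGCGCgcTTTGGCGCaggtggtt
RBL2: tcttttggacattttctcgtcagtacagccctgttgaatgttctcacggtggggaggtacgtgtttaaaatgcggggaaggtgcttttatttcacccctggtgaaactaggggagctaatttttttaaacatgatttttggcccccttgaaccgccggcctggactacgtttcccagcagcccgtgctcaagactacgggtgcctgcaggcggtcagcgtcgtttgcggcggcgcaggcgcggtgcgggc
The RBL1 window held TTTCGCGC from 26 to 19 bases and TTTGGCGC from 16 to 9 bases before the start, and these matches did not overlap. The RBL2 window held none of these letters. Of the other 7 genes, MDM2 held a single match on the opposite strand, written GCGCCAAA on the gene's strand, 232 to 225 bases before 1 of its 4 starts. The same site lay 237 to 230 bases before another of the 4. At least 1 match was present in 2.79% of the 35116 promoter windows of this length, and 0.122% held 2 or more. A match describes the letters of the window and is not evidence of binding.

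**Figure D1:**
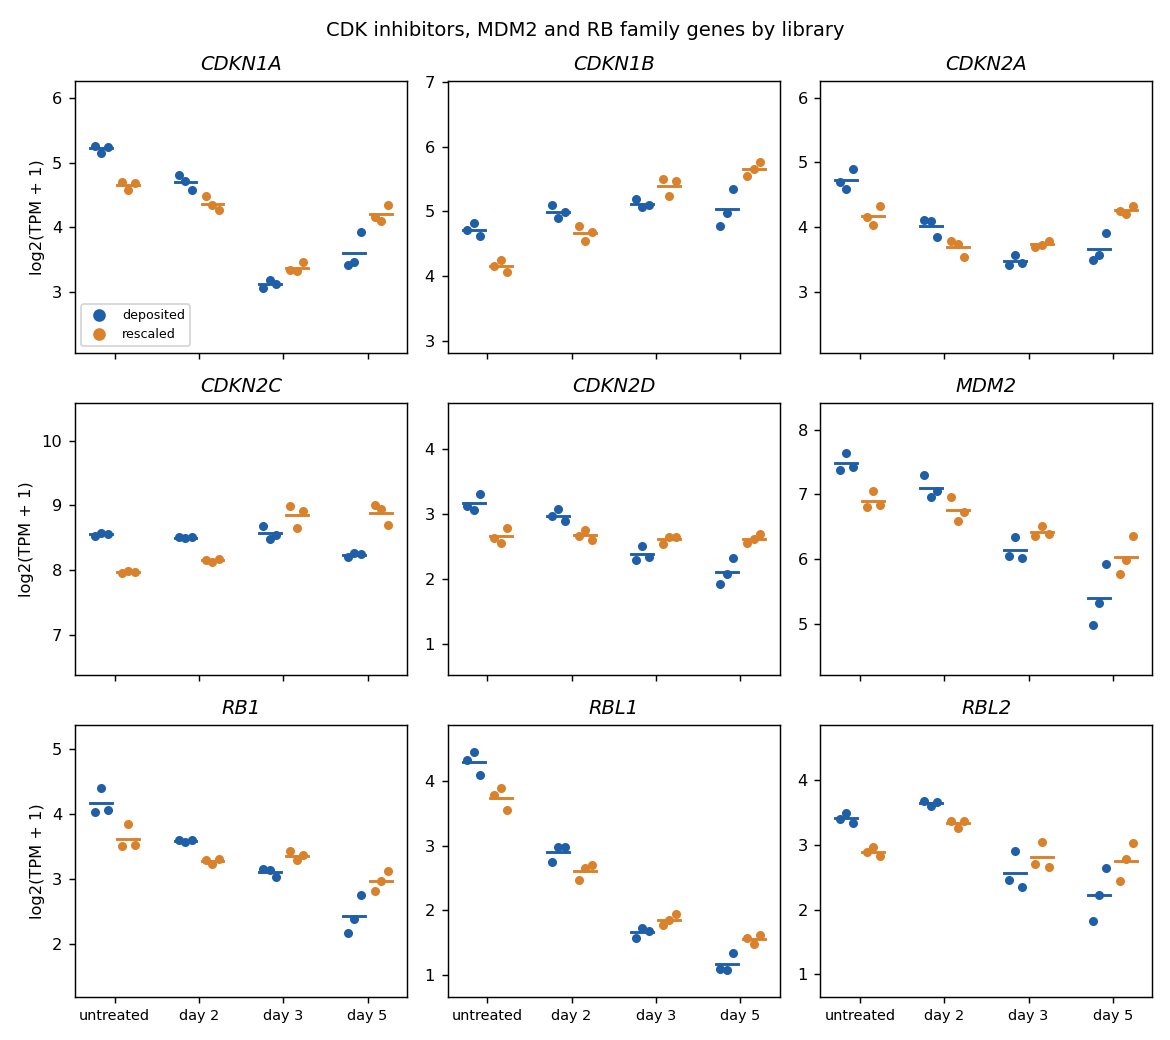
The value of each gene in each library, as log2(TPM + 1), in untreated cells and after 2, 3 and 5 days of NGI-1, as deposited (blue) and after rescaling (orange), with points for libraries and bars for means of 3; each panel spans the same number of log2 units. RBL1 fell at every day on both scales, whereas CDKN1B and CDKN2C were called on the rescaled values only, and there as higher.

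CDKN1A, which encodes p21 (chr6:36676460-36687339, GRCh38, plus strand), fell to its lowest level at day 3 and lay higher again at day 5. The untreated libraries held 37.3, 34.6 and 37.0 TPM. The day 2 libraries held 27.1, 25.2 and 22.9 TPM, those of day 3 held 7.35, 8.07 and 7.70 TPM, and those of day 5 held 9.69, 10.01 and 14.2 TPM. Every treated library lay below every untreated one, every day 3 library lay below every day 5 library, and the highest day 5 value was that of replicate 3. The log2 fold change against untreated cells was -0.52 ± 0.13 (SE, n = 3), -2.10 ± 0.13 and -1.62 ± 0.13 at days 2, 3 and 5, with adjusted p = 0.00559, 8.85e-09 and 5.10e-08. The day 2 call was lost without untreated replicate 1 (-0.50) or day 2 replicate 3 (-0.46). After rescaling only the day 3 difference was called, at -1.28, beside -0.29 at day 2 and -0.45 at day 5. From day 3 to day 5 the log2 difference was 0.48 ± 0.13 (adjusted p = 0.016), short of the size asked for. It was 0.82 and called higher after rescaling, and it was also called on the deposited scale without day 3 replicate 2 (0.51), day 5 replicate 1 (0.57) or day 5 replicate 2 (0.55).

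CDKN1B, which encodes p27 (chr12:12715058-12722371, plus strand), went the other way relative to CDKN1A. It was read at 25.1, 27.2 and 23.6 TPM in untreated cells and at 33.3, 28.8 and 30.8 TPM at day 2. At day 3 it was read at 35.6, 32.5 and 33.2 TPM and at day 5 at 26.3, 30.4 and 39.4 TPM. The day 2 and day 3 libraries all lay above the untreated ones, while day 5 replicate 1 lay within the untreated range and replicate 3 was the highest of all libraries. The deposited log2 fold changes of 0.28 ± 0.13, 0.40 ± 0.13 and 0.31 ± 0.13 (SE, n = 3) at days 2, 3 and 5 were not called, with adjusted p = 0.0869, 0.0101 and 0.0337, the last 2 being under the threshold on p but not over that on size. After rescaling the differences were 0.50, 1.24 and 1.50, all called higher. Leaving out the 20 most abundant features gave 0.38, 0.66 and 0.63, of which those of days 3 and 5 were called. By rank, which no scaling of a library changes, CDKN1B moved from a mean percentile of 68.8 among the tested features in untreated cells to 77.5, 85.3 and 87.0 at days 2, 3 and 5.

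The ratio of CDKN1B to CDKN1A TPM, taken within each library and so free of its scaling, was 0.673, 0.787 and 0.638 in untreated cells. It was 1.23, 1.14 and 1.35 at day 2, reached 4.84, 4.03 and 4.31 at day 3, and was 2.72, 3.04 and 2.77 at day 5. CDKN1A was thus the more abundant of this pair in every untreated library and CDKN1B in every treated one, with no overlap between any of the 4 groups.

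CDKN2C, encoding the INK4 inhibitor p18 (chr1:50960745-50974633, plus strand), was by far the most abundant of the 9 genes in every group. It was read at 369, 379 and 375 TPM in untreated cells and at 362, 359 and 362 TPM at day 2. The day 3 libraries held 411, 355 and 371 TPM, and those of day 5 held 294, 306 and 305 TPM. The day 3 libraries spanned the untreated range, whereas all day 5 libraries lay below every other library. The deposited log2 fold changes were -0.05 ± 0.07, 0.02 ± 0.07 and -0.31 ± 0.07 (SE, n = 3) at days 2, 3 and 5, none of them called, although the last had adjusted p = 0.000508. After rescaling they were 0.18, 0.88 and 0.91, and those of days 3 and 5 were called higher, so the sign of the day 2 and day 5 differences depended on the scale. Its percentile among the tested features stayed between 97.3 and 98.3 in all libraries.

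CDKN2A (chr9:21967753-21995301, minus strand) encodes both p16INK4a, an INK4 inhibitor, and p14ARF, an inhibitor of MDM2, and the deposited symbol adds up the transcripts of both. Untreated libraries held 24.9, 23.1 and 28.7 TPM, and day 2 libraries 16.3, 16.0 and 13.3 TPM. Day 3 libraries held 9.68, 10.9 and 9.85 TPM and day 5 libraries 10.3, 10.8 and 14.1 TPM. All treated libraries lay below the untreated ones, and the values of days 3 and 5 overlapped. The log2 fold changes of -0.71 ± 0.13, -1.25 ± 0.13 and -1.07 ± 0.13 (SE, n = 3) were called lower on the deposited scale, with adjusted p = 0.000717, 1.28e-06 and 3.74e-06. None was called after rescaling, where they were -0.48, -0.43 and 0.09, the day 5 value having turned sign. The antisense gene CDKN2B-AS1, whose exons overlap those of CDKN2A, reached at most 1.29 TPM.

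CDKN2D, encoding p19 of the same family (chr19:10566462-10569059, minus strand), followed the bulk of the transcriptome. Its values were 7.77, 7.37 and 8.91 TPM in untreated cells and 6.81, 7.42 and 6.40 TPM at day 2. They were 3.91, 4.68 and 4.06 TPM at day 3 and 2.80, 3.20 and 4.02 TPM at day 5. The day 2 values overlapped the untreated ones, and those of days 3 and 5 lay below both. It was called lower at day 3 (-0.79 ± 0.13, adjusted p = 9.38e-05) and day 5 (-1.06 ± 0.13, adjusted p = 4.18e-06), but after rescaling its log2 differences were 0.01, -0.05 and -0.04 at days 2, 3 and 5. Its mean percentile was 41.2, 40.8, 41.6 and 41.2 in the 4 groups in order of time.

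CDKN2C supplied 91.8% of the summed TPM of these INK4 genes in untreated cells, 94.2% at day 2, 96.3% at day 3 and 95.3% at day 5. The ratio of CDKN2C to CDKN2A was 13.1 to 16.4 in untreated cells, 22.3 to 27.2 at day 2, 32.7 to 42.5 at day 3 and 21.7 to 28.6 at day 5. Each treated group lay above the untreated range, and days 2 and 5 overlapped.

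MDM2, the ubiquitin ligase for p53 (chr12:68808176-68850686, plus strand), fell further at each later day. It was read at 166, 199 and 170 TPM in untreated cells and at 156, 124 and 132 TPM at day 2. At day 3 it was read at 65.2, 80.1 and 63.9 TPM, and at day 5 at 30.6, 38.9 and 59.6 TPM. No group overlapped the next, although day 5 replicate 3 came close to the day 3 libraries. The log2 fold change of -0.37 ± 0.19 (SE, n = 3) at day 2 was not called (adjusted p = 0.118), while those of -1.34 ± 0.19 at day 3 and -2.07 ± 0.19 at day 5 were called lower, with adjusted p = 1.60e-05 and 1.49e-07. After rescaling only the day 5 difference was called, at -0.86, beside -0.14 and -0.48 at days 2 and 3. The drop from day 3 to day 5 (-0.73 ± 0.19, adjusted p = 0.0123) was not called after rescaling (-0.38), nor without day 3 replicate 2 (-0.63) or day 5 replicate 1 (-0.52). A processed pseudogene on the same strand, AC025423.2, overlaps exons of MDM2 and was listed at a mean of 88.5, 52.1, 35.8 and 23.2 TPM in the 4 groups, so reads may have been split between the 2 features. Their summed TPM was 267 ± 47.5 (SD, n = 3) in untreated cells and 190 ± 31.0, 106 ± 14.6 and 66.3 ± 23.6 at days 2, 3 and 5.

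CDKN1A and MDM2, both induced by p53, did not keep a fixed proportion. The ratio of CDKN1A to MDM2 was 0.174 to 0.225 in untreated cells, 0.173 to 0.203 at day 2 and 0.101 to 0.120 at day 3. At day 5 it was 0.239 to 0.317. The untreated and day 2 libraries overlapped, those of day 3 lay below all others and those of day 5 above all others.

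RBL1, encoding p107 (chr20:36996349-37095995, minus strand), had the largest fall of the 9 genes at every day on both scales. Untreated libraries held 19.0, 20.9 and 16.0 TPM. The day 2 libraries held 5.73, 6.90 and 6.92 TPM, the day 3 libraries 1.96, 2.32 and 2.19 TPM, and the day 5 libraries 1.12, 1.11 and 1.53 TPM. No group overlapped another. The mean TPM was 2.86-fold lower at day 2, 8.64-fold lower at day 3 and 14.9-fold lower at day 5. On the log2(TPM + 1) scale, which understates the change of such low values, the differences were -1.38 ± 0.13, -2.63 ± 0.13 and -3.12 ± 0.13 (SE, n = 3), with adjusted p = 3.04e-06, 1.23e-09 and 1.27e-10. After rescaling they remained called at -1.13, -1.88 and -2.19. The further difference from day 3 to day 5 was -0.49 ± 0.13 (adjusted p = 0.017) and was not called, but it was called without day 3 replicate 1 (-0.54) or day 5 replicate 3 (-0.58). By rank, RBL1 went from percentile 61.5 in untreated cells to 39.6, 26.3 and 19.0.

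RBL2, encoding p130 (chr16:53433977-53491649, plus strand), the RB family protein typical of resting cells, did not follow RBL1 at day 2. It was read at 9.60, 10.2 and 9.16 TPM in untreated cells and at 11.9, 11.2 and 11.7 TPM at day 2, then at 4.49, 6.49 and 4.11 TPM at day 3 and 2.54, 3.67 and 5.28 TPM at day 5. All day 2 libraries lay above the untreated ones and all later libraries below them, with days 3 and 5 overlapping. The day 2 difference of 0.24 ± 0.19 (SE, n = 3) was not called (adjusted p = 0.321; 0.44 after rescaling). Those of -0.84 ± 0.19 at day 3 and -1.18 ± 0.19 at day 5 were called lower, with adjusted p = 0.00101 and 4.53e-05, but were -0.09 and -0.14 and not called after rescaling. The drop from day 2 to day 3 was called on both scales, at -1.08 ± 0.19 (adjusted p = 0.000222) and -0.53. From day 3 to day 5 the difference of -0.34 was not called, except without day 5 replicate 3 (-0.55). Exons of AKTIP on the opposite strand overlap RBL2, and AKTIP itself was listed at 5.75 TPM in untreated cells and 2.17 TPM at day 5.

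RB1, which encodes the retinoblastoma protein (chr13:48303726-48599436, plus strand), was read at 15.4, 20.1 and 15.8 TPM in untreated cells and at 11.2, 10.8 and 11.1 TPM at day 2. It was read at 7.90, 7.79 and 7.14 TPM at day 3 and at 3.46, 4.23 and 5.70 TPM at day 5. No group overlapped another, and the fall went on from day 3 to day 5 (-0.68 ± 0.15, adjusted p = 0.00565), though not past the threshold after rescaling (-0.39). Against untreated cells the log2 fold changes were -0.58 ± 0.15, -1.06 ± 0.15 and -1.74 ± 0.15 (SE, n = 3), with adjusted p = 0.00631, 1.65e-05 and 8.58e-08. The day 2 call was lost without untreated replicate 2 (-0.46). After rescaling they were -0.35, -0.26 and -0.65, of which only that of day 5 was called. From day 2 to day 3 the difference was -0.49 and not called, but it was called without day 3 replicate 1 (-0.51) or day 3 replicate 2 (-0.50).

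Within the RB family RBL1 went from the highest mean level in untreated cells to the lowest in every treated group. In untreated cells RBL1 at 18.6 ± 2.44 TPM (SD, n = 3) and RB1 at 17.1 ± 2.61 TPM overlapped, and both lay above RBL2 at 9.67 ± 0.54 TPM. At day 2 RBL2 and RB1 overlapped at 11.6 ± 0.38 and 11.04 ± 0.20 TPM, and RBL1 was the lowest at 6.52 ± 0.68 TPM. RB1 again had the higher mean at days 3 and 5, at 7.61 and 4.46 TPM, beside 5.03 and 3.83 TPM for RBL2. The ranges of RB1 and RBL2 were separate at day 3 and overlapped at day 5. RBL1 stayed the lowest, at 2.16 and 1.25 TPM. The ratio of RBL2 to RBL1 was 0.491 to 0.572 in untreated cells, 1.62 to 2.07 at day 2, 1.88 to 2.79 at day 3 and 2.26 to 3.46 at day 5, so RBL1 was the more abundant in every untreated library and RBL2 in every treated one. In this ratio day 3 overlapped both day 2 and day 5, and every day 5 library lay above every day 2 library. The ratio of RB1 to RBL1 was 0.809 to 0.984 in the untreated libraries, 1.57 to 1.95 at day 2 and 3.26 to 4.03 at day 3, with 3.08 to 3.82 at day 5.

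**Figure D2:**
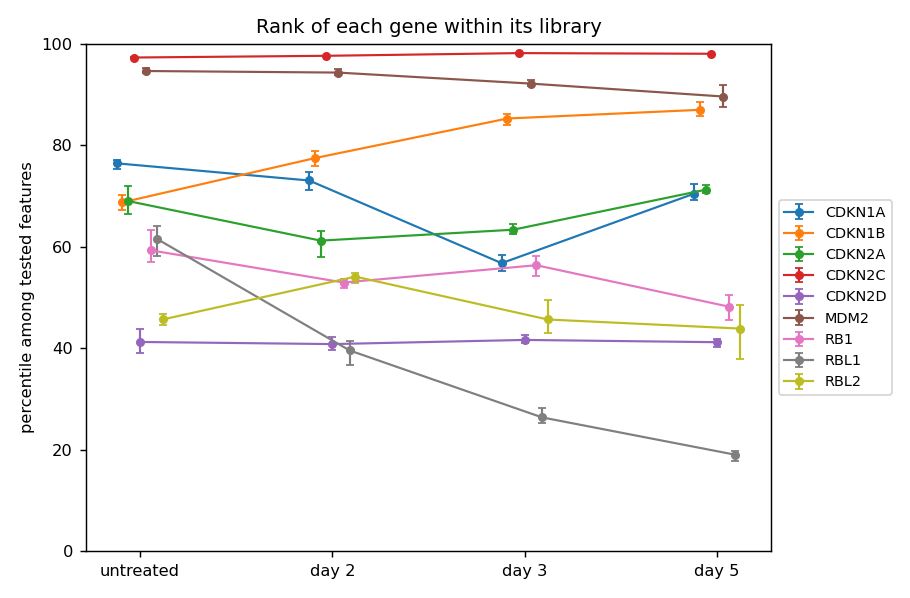
Mean percentile of each gene among the 11939 tested features of its library, by group, with bars from the lowest to the highest of 3 libraries; values of different scalings of a library give the same rank. RBL1 went from 61.5 in untreated cells to 19.0 at day 5, CDKN1B from 68.8 to 87.0, and CDKN1A dipped from 76.5 to 56.8 at day 3 and lay at 70.5 at day 5.

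Over the 9 genes, 4 were called lower at day 2 (CDKN1A, CDKN2A, RB1 and RBL1), when 23.2% of all tested features were. At days 3 and 5 all but CDKN1B and CDKN2C were called lower, 7 of 9 or 77.8%, beside 61.5% and 69.8% of all tested features. These shares lay near the background. None was called higher at days 2, 3 or 5, against 8.04%, 7.59% and 7.73% of all features. The median log2 fold change of the 9 genes was -0.37, -1.06 and -1.18 at days 2, 3 and 5, beside -0.18, -0.73 and -0.99 over all features. The 3 comparisons share the same untreated libraries. On the deposited scale all 3 libraries of day 2 lay below all 3 untreated ones for 6 of the 9 genes, those of day 3 for 7 and those of day 5 for 8, beside 44.1%, 70.5% and 75.2% of all tested features. They lay above them for 2, 1 and 0 genes, beside 16.9%, 11.1% and 10%.

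After rescaling, RBL1 alone was called lower at day 2, RBL1 and CDKN1A at day 3, and RBL1, MDM2 and RB1 at day 5. The shares of all features called lower on that scale were 11.4%, 24.2% and 26.9%. CDKN1B was called higher at day 2, and CDKN1B and CDKN2C at days 3 and 5, beside 12.9%, 23.9% and 27.5% of all features. RBL1 was the only one of the 9 called lower at days 2, 3 and 5 on both scales.

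Between neighbouring days, 6 of the 9 genes were called lower from day 2 to day 3, namely CDKN1A, CDKN2A, CDKN2D, MDM2, RBL1 and RBL2, beside 55.5% of all features, and none was called higher, beside 3.22%. After rescaling 3 of them (CDKN1A, RBL1 and RBL2) were called lower, beside 13.6%, and CDKN1B and CDKN2C were called higher, beside 14.3%. The log2 difference of CDKN1A was -1.58 ± 0.13 (SE, adjusted p = 9.22e-07; -0.99 after rescaling) and that of RBL1 was -1.25 ± 0.13 (adjusted p = 7.71e-06; -0.75 after rescaling). From day 3 to day 5 only MDM2 and RB1 were called lower, beside 13.1% of all features, and none higher, beside 0.67%. The libraries of day 3 lay wholly below those of day 2 for 7 genes (70.1% of all features) and above them for 0 (6.93%), and those of day 5 wholly below those of day 3 for 4 (34.1%) and above them for 1 (3.45%). After rescaling none was called lower, beside 2.03%, and CDKN1A and CDKN2A (0.52) were called higher, beside 4.43%.

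**Figure D3:**
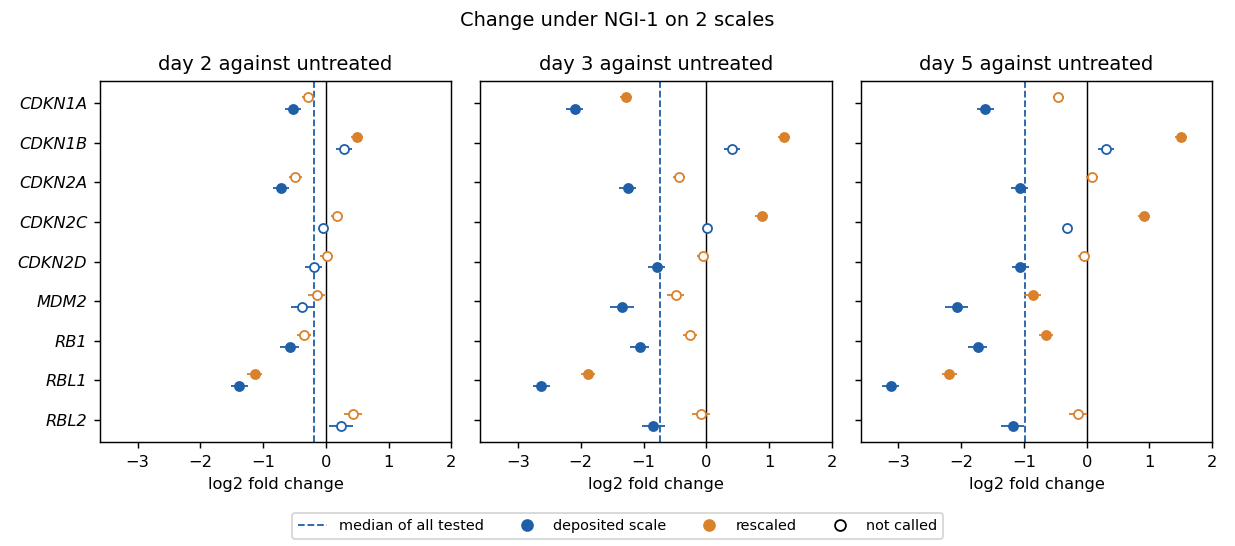
Log2 fold change of each gene at days 2, 3 and 5 against untreated cells on the deposited scale (blue) and after rescaling (orange), with bars of 1 standard error from limma, filled points for genes called and a dashed line for the median of all tested features on the deposited scale (-0.18, -0.73 and -0.99). On the deposited scale CDKN1B and CDKN2C lay right of that line at every day, and RBL1 lay left of it. After rescaling, where the medians of all tested features were 0.01, -0.03 and -0.02, RBL1 was still called lower at every day.

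The genes that act around these 9 were read as lists. Their counts stand beside the 23.2%, 61.5% and 69.8% of all tested features called lower at days 2, 3 and 5 (11.4%, 24.2% and 26.9% after rescaling) and the medians of all features of -0.18, -0.73 and -0.99. The shares of all features called higher were 8.04%, 7.59% and 7.73%, and after rescaling 12.9%, 23.9% and 27.5%. The E2F target genes, which the RB family restrains, fell without exception: all 22 were called lower at days 2, 3 and 5 on both scales, with medians of -1.91, -3.90 and -4.29. RRM2, a subunit of ribonucleotide reductase, had the largest fall in the list at day 5 (467 to 1.31 TPM, log2 fold change -7.67, adjusted p = 1.46e-13, -6.68 after rescaling). An E2F motif match was present in 11 of the 25 promoter windows found for 18 genes of this list, beside the 2.79% of all windows given above. These matches came from 10 genes. The list was written from known E2F targets, so this share is a description and not a test. The list of 13 cyclins and CDKs of G1 and S phase also holds the phosphatase CDC25A and the CDK-activating kinase genes CDK7, CCNH and MNAT1. Of its genes 8, 10 and 11 were called lower at days 2, 3 and 5 and none higher, with medians of -0.88, -1.87 and -2.26. After rescaling 8, 10 and 9 were lower, and CCNH (0.61 and 0.80) and MNAT1 (1.11 and 1.19) were higher at days 3 and 5, named after their values were seen. CCNA2, the S phase cyclin A, fell from 58.4 TPM to 0.412 TPM at day 5 (-5.40, adjusted p = 7.08e-13, -4.60 after rescaling).

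Of 14 RB family partners and subunits of the DREAM complex, which carries RBL1 or RBL2 on cell cycle promoters, 8, 12 and 13 were called lower at days 2, 3 and 5, and 6, 7 and 8 after rescaling. The medians were -0.58, -1.36 and -1.65, and after rescaling -0.35, -0.50 and -0.55. None was higher on the deposited scale, and E2F5, named after its values were seen, was at days 3 and 5 after rescaling (0.89 and 0.84). SUV39H1, a histone methyltransferase that binds RB1, had the largest fall at day 5 (11.9 to 0.671 TPM, -2.95, adjusted p = 9.82e-11, -2.12 after rescaling). Of 10 genes for the removal of p27 and p21, from the SCF-SKP2 and CRL4-CDT2 ubiquitin ligases and the proteasome activator PSME3, 6, 9 and 9 were called lower, with medians of -0.70, -1.89 and -2.39. Their shares of 60.0%, 90.0% and 90.0% stand beside the same 23.2%, 61.5% and 69.8% of all features. After rescaling 5, 7 and 7 were lower, and RBX1, the RING subunit, was higher at days 3 and 5 (0.50 and 0.74), named after its values were seen. DTL, the substrate receptor CDT2, fell from 25.3 TPM to 0.111 TPM at day 5 (-4.57, adjusted p = 4.79e-12, -3.94 after rescaling).

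Of the other CDK inhibitor genes, CDKN1C (p57) reached at most 0.372 TPM and CDKN2B (p15) at most 0.718 TPM in any library, below the filter. CDKN3, a phosphatase that acts on CDK2, fell from 87.5 TPM to 32.7, 5.63 and 2.04 TPM at days 2, 3 and 5 (-4.89 at day 5, adjusted p = 5.67e-12, -3.86 after rescaling). CDKN2AIP, which binds p14ARF, was read at 13.8, 13.1, 14.0 and 11.2 TPM and was not called on the deposited scale (-0.28 at day 5), but was called higher at days 3 and 5 after rescaling (0.83 and 0.85).

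Of 17 regulators of p53 besides MDM2, 4, 10 and 14 were called lower at days 2, 3 and 5 and 1 higher at each day. After rescaling 2, 5 and 5 were lower and 1, 4 and 4 higher. The rescaled shares called higher were 5.88%, 23.5% and 23.5%, beside 12.9%, 23.9% and 27.5% of all features. The shares called lower on the deposited scale, 23.5%, 58.8% and 82.4%, stand beside 23.2%, 61.5% and 69.8% of all features, so those of days 2 and 3 lay at the background. The medians were -0.33, -1.03 and -1.32. CHEK1, a checkpoint kinase, fell from 75.4 TPM to 0.774 TPM at day 5 (-5.45, adjusted p = 5.67e-12, -4.59 after rescaling). RPL11, a ribosomal protein that binds MDM2, rose from 2670 TPM to 4560 TPM (0.77, adjusted p = 1.01e-07, 2.00 after rescaling). The gene called higher at day 2 was MDM4, the partner of MDM2, at 3.26 TPM untreated and 5.69 TPM at day 2 (0.65, 0.78 after rescaling), named after its value was seen.

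Of 27 tested p53 target genes out of 29 listed, CDKN1A and MDM2 not among them, 10, 15 and 17 were called lower at days 2, 3 and 5, and 3 were called higher at each day. The shares called lower were 37.0%, 55.6% and 63.0%, above the background of 23.2% at day 2 and near or below that of 61.5% and 69.8% at days 3 and 5. The median log2 fold changes were -0.29, -0.61 and -0.81, beside -0.18, -0.73 and -0.99 over all features. After rescaling 4, 7 and 6 were lower and 5, 8 and 11 higher. The rescaled shares called higher, 18.5%, 29.6% and 40.7%, stand beside 12.9%, 23.9% and 27.5% of all features. At day 5 more p53 target genes were lower on the deposited scale and more were higher on the rescaled one. All features shifted too, from 69.8% lower and 7.73% higher at day 5 to 26.9% and 27.5% after rescaling. DDB2, a subunit of a DNA damage sensor, fell from 20.8 TPM to 2.19 TPM (-2.79, adjusted p = 2.66e-09, -1.78 after rescaling). PMAIP1, the cell death gene NOXA, rose from 10.4 TPM to 27.4 TPM (1.32, adjusted p = 1.87e-07, 2.47 after rescaling). The other genes called higher at day 5 were BBC3 (PUMA, 1.23) and PLK2 (0.51), named after their values were seen. Genes called lower at day 5 included BAX (-2.062), APAF1 (-1.241), FAS (-0.9986) and TNFRSF10B (-0.5627), which also act in cell death. After rescaling these were -0.8581, -0.5492, -0.2833 and 0.5731, and they too were named after their values were seen. The cell death genes of this list thus did not all move in the same direction.

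FOXO factors induce CDKN1B and RBL2 in resting cells. Of 8 tested genes among 12 FOXO factors and targets, 3 were called higher at days 2 and 3 and 2 at day 5, and 3 were called lower at days 3 and 5. The shares called higher, 37.5%, 37.5% and 25.0%, stand beside 8.04%, 7.59% and 7.73% of all features. The medians were 0.34, -0.27 and -0.35. After rescaling none was called lower and 4, 4 and 5 were higher, beside 12.9%, 23.9% and 27.5% of all features. PIK3IP1, an inhibitor of PI3 kinase signaling, rose from 1.85 TPM to 9.74 TPM at day 2 and was at 6.93 TPM at day 5 (1.47, adjusted p = 1.02e-07, 2.40 after rescaling). FOXO3 was read at 39.1 TPM in untreated cells and 23.1 TPM at day 5, and its day 5 fall of -0.78 (adjusted p = 0.0021) turned to 0.40 after rescaling. CCNE1, CCNE2 and PPM1D stand in more than 1 of these lists, which are not independent of one another.

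**Figure D4:**
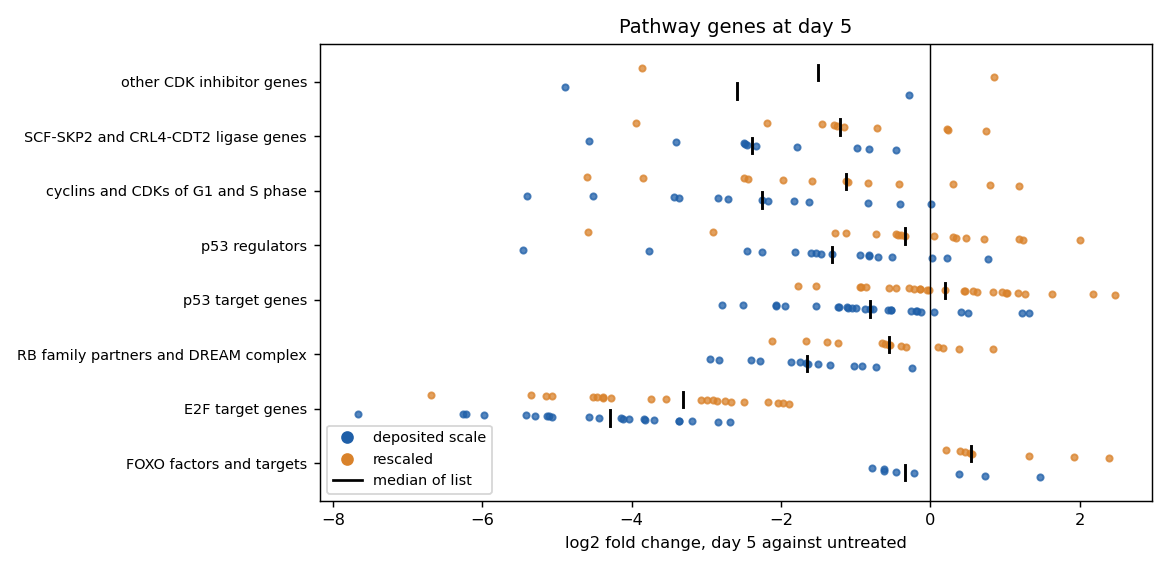
Log2 fold change at day 5 against untreated cells for each tested gene of the 8 pathway lists, on the deposited scale (blue) and after rescaling (orange), with black bars for the list medians. The 22 E2F target genes lay below 0 on both scales (median -4.29 and -3.31), whereas the median of the 27 p53 target genes was -0.81 on the deposited scale and 0.20 after rescaling. The medians of all tested features were -0.99 and -0.02.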

How the data were processed

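Total RNA of 12 MM1S libraries was measured, 3 in each of 4 groups taken from the labels. The authors deposited log2 values of TPM plus 1, and the submitters' processing notes name FastQC, Trimmomatic, STAR, Salmon and hg38. The annotation and the strand setting are not given in the sources used here. The log2 was undone to give TPM. Nothing in the labels says that the libraries of a group came from separate cultures, so p-values measure only the spread between these libraries.

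Features with at least 1 TPM in at least 3 libraries (11939) were fitted with limma 3.58.1 in R 4.3.3, with 1 mean per group and a mean-variance trend. The procedure was run on simulated data in which few features changed. That run does not cover a shift of most features, as seen here. P-values are two-sided, with Benjamini-Hochberg adjustment over all tested features of a comparison. Rescaling used 1 factor per library over 5433 features. Alternatives were rescaling, no filter, a minimum of 5 TPM, a pseudocount of 0.1, leaving out the 20 most abundant features, no trend, pairwise fits, a fold change threshold of 1 and leaving out each library. Coordinates and overlapping genes came from GENCODE release 29, and promoters from RefSeq. Python 3.11.15 with pandas 2.3.3 and matplotlib 3.10.9 made the tables and figures.

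All 9 genes were named, and in each list the called genes with the largest rise and fall at day 5, every gene of the list of 4, and for each member the 3 features most like it. Members and lists were chosen with earlier results of these data known, and the lists were written from general knowledge.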

Additional observations from a re-analysis of the deposited data

Results flagged for a closer look

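Differences between neighbouring days were read by limma's contrast between those days on the deposited scale. It called 6 of the 9 genes lower from day 2 to day 3 and 2 from day 3 to day 5. None was called higher, beside 3.22% and 0.67% of all tested features. Of all tested features, 55.5% were called lower from day 2 to day 3 and 13.1% from day 3 to day 5. From day 2 to day 3 the log2 difference was -1.58 for CDKN1A, -1.25 for RBL1, -1.08 for RBL2, -0.97 for MDM2, -0.596 for CDKN2D and -0.537 for CDKN2A. After rescaling these were -0.99, -0.75, -0.53, -0.34, -0.06 and 0.05, and the first 3 were called. The CDKN2A difference was not called without day 2 replicate 1 (-0.49) or day 2 replicate 2 (-0.50). From day 3 to day 5 the log2 difference was -0.73 for MDM2 and -0.676 for RB1, and after rescaling -0.38 and -0.39, neither of them called.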

How the results depend on the processing

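The counts of genes called lower at days 2, 3 and 5 (4, 7 and 7) were 1, 2 and 3 after rescaling, and 1, 2 and 2 were then higher. From day 2 to day 3 rescaling gave 3 lower and 2 higher, and from day 3 to day 5 it gave 0 lower and 2 higher. Leaving out the 20 most abundant features gave 2 lower at day 2, 4 from day 2 to day 3 and 3 from day 3 to day 5. It gave 1 higher at each of day 3, day 5 and day 5 against day 3. A fold change threshold of 1 gave 1 lower at day 2, 5 at day 3, 3 from day 2 to day 3 and 0 from day 3 to day 5. Without a filter, and in pairwise fits, 1 was lower from day 3 to day 5. A pseudocount of 0.1 gave 7 lower from day 2 to day 3, and 3 lower and 1 higher from day 3 to day 5. Leaving out single libraries gave 1 to 4 lower and 0 to 1 higher from day 3 to day 5, the 4 being without day 5 replicate 3. The same fits gave 3 to 4 lower at day 2 and 5 to 7 from day 2 to day 3. A minimum of 5 TPM and no trend kept the calls of all 45 differences.

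Rescaling turned the sign of CDKN1B from day 3 to day 5 (0.259), CDKN2A at day 5 (0.087) and from day 2 to day 3 (0.05), CDKN2C at day 2 (0.181), at day 5 (0.912) and from day 3 to day 5 (0.0302), CDKN2D at day 2 (0.0118) and from day 3 to day 5 (0.00904), and RB1 from day 2 to day 3 (0.0867). Leaving out the 20 most abundant features turned CDKN2C at day 2 (0.0428) and day 5 (0.0114). Without day 5 replicate 1, CDKN1B from day 3 to day 5 was 0.0377, within -0.245 to 0.0377 over single libraries. Without day 3 replicate 1, CDKN2C at day 3 was -0.0436, within -0.0436 to 0.0612. The cause was not tested. No paired analysis was possible because the columns carry no replicate numbers shared between the groups.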

Other observations

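The features most like each member were ranked by Pearson's r of the deposited values over the 12 libraries, among 5433 features. These points share libraries and groups, so r is a description. RBL1 was most like SMC2, UNG and LMNB1 (each r = 0.996), and 2904 features had an r over 0.9 with it. CDKN1B had a single such feature, PCGF5 (0.903), followed by SOX4 (0.893) and ANAPC16 (0.862). CDKN2C had 11, led by NSA2 (0.962), MRPS21 (0.942) and MRFAP1L1 (0.932). CDKN1A was most like MAP1B (0.982), USP22 (0.981) and EHBP1L1 (0.978), with 1389 over 0.9. CDKN2A was most like MSRB1 (0.983), RPS19BP1 (0.971) and GNG5 (0.964), with 726. RBL2, with 1928, was led by USO1 (0.995), GLG1 (0.994) and ALG2 (0.993). RB1, with 3071, was led by PPP4R3B (0.994), PPP3CB (0.993) and TDP2 (0.993). MDM2, with 3321, was led by ALDH9A1 (0.995), EXOC5 (0.995) and CCDC117 (0.994), and CDKN2D, with 3350, by GUSB, ATP6V0C and GNL1 (each 0.993).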
